A study of Mus musculus with 12 samples.

Results

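The 6 chains of type IV collagen, Col4a1 to Col4a6, were followed in RNA-Seq of the mouse abdominal aorta. They were taken by gene symbol from a table of 55092 genes, all 6 were found there, and all 6 were among the 14676 genes with enough signal to be tested. The experiment asked how deletion of CCN2, a matricellular signaling protein, in smooth muscle cells (SMCs) alters the aortic transcriptome with and without angiotensin II (Ang II). Aortas came from 12 male mice, 1 library per mouse, in 4 groups of 3. Every animal carried floxed Ccn2 alleles and, by the study's methods, received 5 doses of tamoxifen from 8 weeks of age, followed by 2 weeks without treatment. CCN2SMC∆ mice also carried Myh11-Cre-ERT2, a tamoxifen-dependent recombinase driven from the promoter of smooth muscle myosin heavy chain, and CCN2fl/fl controls carried no Cre. CFS denotes CCN2fl/fl with saline, CSS denotes CCN2SMC∆ with saline, CFA denotes CCN2fl/fl with Ang II, and CSA denotes CCN2SMC∆ with Ang II. Infusion ran for 7 days from mini-osmotic pumps, with Ang II at 500 ng/kg/min. No group of Cre-carrying mice without floxed alleles was analysed here, so effects of Cre itself cannot be told apart from those of the deletion.

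Type IV collagen is the sheet-forming collagen of basement membranes. Its chains assemble inside the cell into heterotrimers, which are secreted and join end to end into networks that laminins, nidogens and perlecan bind. The α1α1α2 trimer, encoded by Col4a1 and Col4a2, occurs in nearly all basement membranes, including those under endothelium and around each vascular SMC. The α3α4α5 trimer is best known from the kidney glomerulus, where its loss causes Alport syndrome. The α5α5α6 trimer occurs in the basement membrane of smooth muscle, among other sites. The genes lie as head-to-head pairs, each pair transcribed outwards from a shared start region.

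In GENCODE M21 (GRCm38), Col4a1 (ENSMUSG00000031502) lay on the minus strand at chr8:11198423-11312826 and Col4a2 (ENSMUSG00000031503) on the plus strand at chr8:11312805-11449287. Their annotated 5′ ends overlapped by 22 bases. Col4a4 (ENSMUSG00000067158, chr1:82448423-82586849, minus strand) and Col4a3 (ENSMUSG00000079465, chr1:82586921-82722059, plus strand) were separated by 71 bases. Col4a6 (ENSMUSG00000031273, chrX:141165403-141474076, minus strand) and Col4a5 (ENSMUSG00000031274, chrX:141475385-141689234, plus strand) were separated by 1308 bases. All 6 genes are annotated as protein coding. Of the exonic bases of Col4a3, 5.65% are shared with the annotated gene C430014B12Rik, where fragments may have been divided or dropped; for the other members that share was under 1%.

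**Figure D1:**
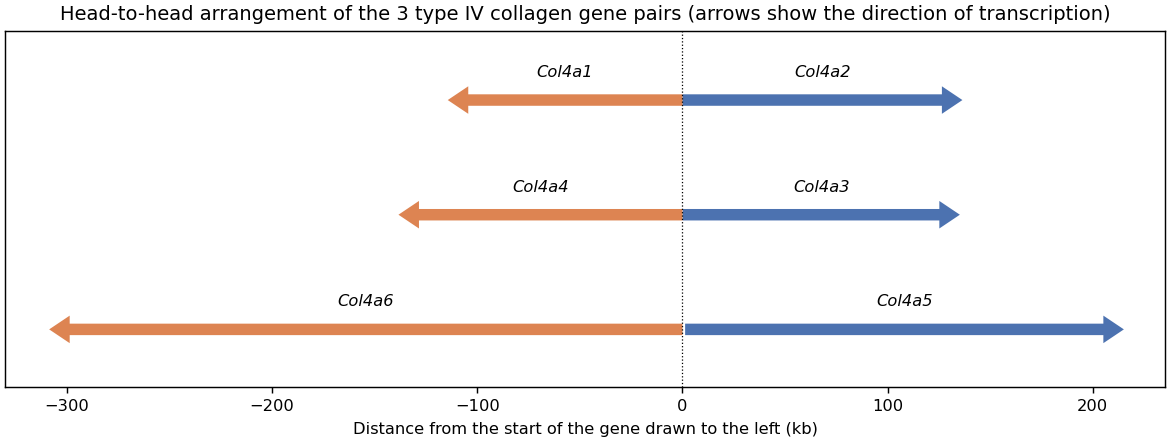
Position of each gene in kb from the annotated start of the gene drawn to the left, one row per head-to-head pair, with arrows pointing in the direction of transcription and drawn to scale. Col4a1 and Col4a2 overlap by 22 bases at their starts, Col4a3 and Col4a4 are 71 bases apart, and Col4a5 and Col4a6 are 1308 bases apart.

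The sequences between or beside the start sites are shown because the partners of each pair are compared below. For Col4a5 and Col4a6 they are separate stretches, each beside its own gene, and are not shared by the pair. All sequences are from RefSeq promoters of GRCm38.p6, printed 5′ to 3′. Capitals mark a CCAAT box or a GC box (GGGCGG on either strand). The 22 bases shared by Col4a1 and Col4a2, chr8:11312805-11312826, read on the plus strand, hold a GC box:
Col4a1/Col4a2 overlap: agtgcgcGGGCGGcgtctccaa
The 71 bases between Col4a4 and Col4a3, chr1:82586850-82586920, read on the minus strand, hold none of the motifs searched:
Col4a4/Col4a3 gap: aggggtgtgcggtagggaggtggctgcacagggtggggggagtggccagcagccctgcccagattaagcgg
The 250 bases before Col4a6, chrX:141474077-141474326, read on the minus strand, hold a GC box that begins 21 bases before the start:
Col4a6 upstream: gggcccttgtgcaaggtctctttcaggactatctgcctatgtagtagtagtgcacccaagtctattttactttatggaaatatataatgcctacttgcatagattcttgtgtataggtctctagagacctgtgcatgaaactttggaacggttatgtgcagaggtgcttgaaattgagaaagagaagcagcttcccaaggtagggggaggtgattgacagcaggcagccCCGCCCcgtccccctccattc
The 216 bases before Col4a5, chrX:141475169-141475384, read on the plus strand, hold a CCAAT box that begins 162 bases before the start:
Col4a5 upstream: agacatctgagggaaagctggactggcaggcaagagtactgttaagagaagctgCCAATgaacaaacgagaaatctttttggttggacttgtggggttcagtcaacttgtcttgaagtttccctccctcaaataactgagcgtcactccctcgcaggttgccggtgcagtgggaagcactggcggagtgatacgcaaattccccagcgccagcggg

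The motifs were searched on both strands of 300-base windows, 250 bases before to 50 bases after each RefSeq start, and 5 of the 6 members were found in that table of 32851 windows. CCAAT occurred in the windows of Col4a1, Col4a2 and Col4a5, against 37.4% of all windows. GGGCGG occurred in those of Col4a1, Col4a2, Col4a5 and Col4a6, against 35.7% of all windows. CAGAC, the core of a Smad-binding element, occurred in those of Col4a2 and Col4a4, against 49.6%, and GGAATG, a TEAD-type motif, in that of Col4a6, against 14.7%. Neither TATAAA (13.6% of all windows) nor the CArG box bound by serum response factor (1.63%) was found in any of the 5. The Col4a1 and Col4a2 windows share 78 bases and so are not separate observations. GC content was 74% and 73.7% in the Col4a1 and Col4a2 windows, 63.3% for Col4a4, 52.7% for Col4a5 and 48.3% for Col4a6, with a median of 52.7% over all windows. These matches are descriptions of the letters present and were not tested for function.

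Levels are given in FPKM, which scales the fragments of a gene to its length and to library size and so allows levels of different genes to be set side by side. The libraries held 14555508 to 23102755 fragments, with the fewest in CSA mouse 03. Replicates lay 0.585 to 0.743 apart in log2 units (root mean square over all tested genes) in CFS, CSS and CFA. In CSA, mouse 03 lay 1.21 and 1.2 from mice 01 and 02, which were 0.505 apart. The chains, their shares and ratios, and the counts of the gene lists in CSA against CFA are therefore also given without mouse 03 or mouse by mouse. The targeted gene, Ccn2, ranged from 480 to 1108 FPKM in CFS, 436 to 640 in CSS, 564 to 1105 in CFA and 255 to 399 in CSA. Its difference between CSS and CFS was not detected (log2 fold change -0.40, limma with Benjamini-Hochberg adjusted p = 1), and that between CSA and CFA was -1.41 (adjusted p = 0.00622), short of the log2 limit of 1.5 for a call, which it passed without CSA mouse 03 (-1.56). Whole aorta also holds cells in which the Cre is not active. SMC markers that were not targeted fell further in CSA against CFA (median log2 fold change -2.99), and their part in the fall of Ccn2 was not tested. These values therefore do not check the genotype labels. The paper's own qPCR of abdominal aortas under Ang II found a larger reduction of CCN2 mRNA than is seen here.

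Smooth muscle transcripts were abundant in every group, as the tissue label requires, yet their level was not equal between groups. The summed FPKM of 8 SMC markers (Myh11, Acta2, Tagln, Cnn1, Smtn, Lmod1, Myocd and Des) was 8202 to 10305 in CFS, 7706 to 8740 in CSS and 5532 to 8420 in CFA, against 800 to 959 in CSA. All 8 were called lower in CSA than in CFA, with a median log2 fold change of -2.99. Myh11, whose promoter drives the Cre, was itself at 718 ± 19.8 FPKM in CFA and 39.9 ± 5.86 in CSA (SD, n = 3). Fewer SMCs and less RNA per SMC cannot be told apart in bulk tissue. Of 8 endothelial markers, all detected, 3 were called lower in CSA than in CFA (Pecam1, Tek and Vwf) and 1 higher (Emcn), with a median log2 fold change of -0.60. Their summed FPKM was 216 to 464 in CFA and 136 to 173 in CSA, with no overlap. Cdh5, the junctional cadherin of endothelium, was at 47.7 ± 11.6 FPKM in CFA and 36.7 ± 7.26 in CSA (adjusted p = 0.501). Without CSA mouse 03, the same 8 SMC markers were called lower, and of the endothelial markers 3 were called lower while Emcn, at a log2 fold change of 1.22, was not called. The part of endothelial content in the results for the chains was not tested. Among kidney markers, Nphs1, Umod, Slc12a1 and Lrp2 were below 1 FPKM in all 12 libraries, and Podxl, which endothelium also makes, was above it.

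The type IV collagen chains kept 1 order of mean level in all 4 groups, Col4a1 above Col4a2, Col4a5, Col4a6, Col4a4 and Col4a3. In CFS the group means ran from 265 ± 25.9 FPKM for Col4a1 to 5.13 ± 0.138 for Col4a3 (SD, n = 3). Neighbours in that order had overlapping ranges only for Col4a1 and Col4a2 in CFA and CSA, and for Col4a4 and Col4a3 in CSA. Every one of the 6 chains was lowest in CSA, and no CSA library overlapped a library of the next lowest group. Of all tested genes, 25.1% lay wholly lower in CSA than in CFA and 29.1% wholly lower than in CSS. The share that lay below all other groups at once was not computed. Col4a1 to Col4a5 had their highest mean in CFA, and Col4a6 had its highest in CSS.

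**Figure D2:**
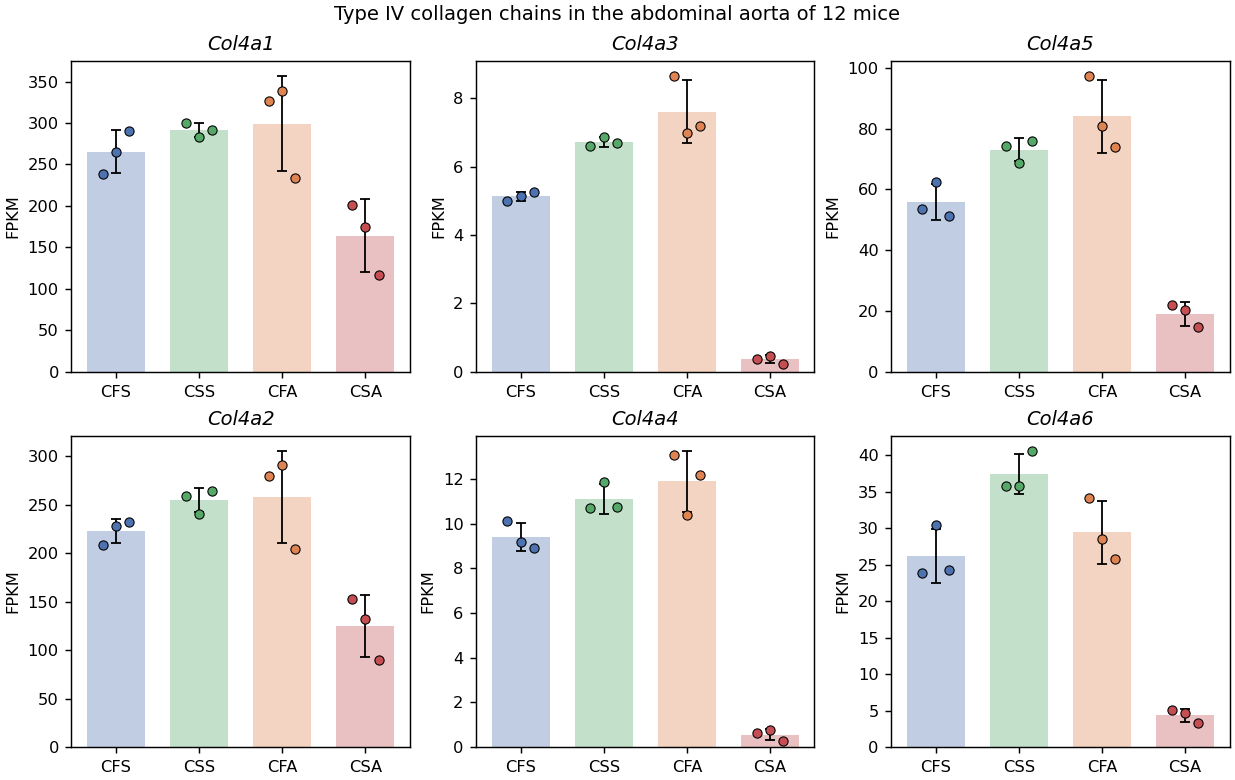
FPKM of each chain (linear axes from 0) in the 4 groups, with 1 point per mouse, bars at the group mean and error bars of 1 SD (n = 3); columns hold the head-to-head pairs. Every CSA point lies below every point of the other groups for all 6 genes, with Col4a3 between 0.242 and 0.468 FPKM in CSA. Of all tested genes, 25.1% lay wholly lower in CSA than in CFA and 29.1% wholly lower than in CSS.

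Under Ang II, loss of SMC CCN2 was accompanied by lower RNA of all 6 chains, by about 2-fold for the α1 and α2 chains and by up to 19.4-fold for the α4 chain. In CSA against CFA, 4 of 6 chains fell past both thresholds (an adjusted p under 0.05, and a log2 fold change beyond 1.5 in either direction), and these were Col4a3, Col4a4, Col4a5 and Col4a6. Of all tested genes, 8.27% were called lower in that comparison. With no fold limit, all 6 chains were lower at an adjusted p under 0.05, as were 21.2% of tested genes. CSA and CFA libraries did not overlap for any of the 6, a pattern that 25.1% of tested genes shared in that direction. The median log2 fold change was -0.04 over all tested genes. Adjusted p-values here and below are from limma with Benjamini-Hochberg adjustment over all tested genes, and log2 fold changes are on the log2(FPKM + 0.1) scale.

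Col4a1 encodes the α1 chain, which contributes most of the α1α1α2 trimer. It was measured at 239, 266 and 291 FPKM in CFS mice 68, 69 and 70 and at 300, 283 and 291 in CSS mice 54, 55 and 56. In CFA mice 71, 72 and 74 it was at 327, 338 and 233, and in CSA mice 01, 02 and 03 at 202, 175 and 117. CFA mouse 74 was the lowest control under Ang II but remained above all CSA mice. The difference of CSA from CFA was 1.84-fold lower, with a log2 fold change of -0.88 (SE 0.21, 95% interval -1.34 to -0.42, adjusted p = 0.00578), which did not reach the fold limit. Fitted on the CSA and CFA libraries alone, the same difference had an adjusted p of 0.0532.

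Col4a2 encodes the α2 chain, the partner of α1. It was at 208, 228 and 232 FPKM in CFS, 259, 241 and 264 in CSS, 280, 291 and 204 in CFA, and 153, 132 and 90.2 in CSA, with mice in the order just given. Its pattern over mice followed that of Col4a1, with CFA mouse 74 and CSA mouse 03 the lowest of their groups for both genes. CSA was 2.09-fold lower than CFA, a log2 fold change of -1.06 (SE 0.20, 95% interval -1.5 to -0.63, adjusted p = 0.00134), again short of the fold limit.

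Col4a3 encodes the α3 chain, whose noncollagenous domain is the Goodpasture antigen. It was at 4.99, 5.14 and 5.27 FPKM in CFS, 6.59, 6.86 and 6.69 in CSS, 8.65, 6.98 and 7.19 in CFA, and 0.390, 0.468 and 0.242 in CSA. The 4 groups did not overlap for this gene, in the order CFA, CSS, CFS and CSA. CSA was 16.8-fold lower than CFA, a log2 fold change of -4.07 (SE 0.18, 95% interval -4.47 to -3.67, adjusted p = 2.43e-07). The CSA values rested on 79, 99 and 37 fragments, against 1477 to 1879 in CFA. For CSA mouse 03 the 95% Poisson interval was 0.171 to 0.334 FPKM; such intervals cover counting error only.

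Col4a4 encodes the α4 chain, found only in the trimer with α3 and α5. It was at 10.1, 9.20 and 8.90 FPKM in CFS, 10.7, 11.9 and 10.7 in CSS, 13.1, 10.4 and 12.2 in CFA, and 0.645, 0.755 and 0.264 in CSA. The ranges of CSS and CFA overlapped, and CSA lay apart from all other groups. CSA was 19.4-fold lower than CFA, a log2 fold change of -4.28 (SE 0.26, 95% interval -4.86 to -3.70, adjusted p = 1.24e-06). Its CSA values rested on 139, 170 and 43 fragments. Because both genes of this pair were near the pseudocount in CSA, a pseudocount of 1 gave smaller log2 fold changes, -2.65 for Col4a3 and -3.06 for Col4a4, which were still called.

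Col4a5 encodes the α5 chain, which joins either α3 and α4 or α6. It was at 53.7, 62.5 and 51.3 FPKM in CFS, 74.3, 68.8 and 76.1 in CSS, 97.4, 80.8 and 73.8 in CFA, and 21.9, 20.5 and 14.6 in CSA. Both CSS and CFA lay above CFS without overlap, and CSA lay below it. CSA was 4.44-fold lower than CFA, a log2 fold change of -2.15 (SE 0.17, 95% interval -2.52 to -1.78, adjusted p = 4.87e-06).

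Col4a6 encodes the α6 chain, found in the trimer with α5. It was at 23.8, 30.5 and 24.3 FPKM in CFS, 35.8, 35.8 and 40.6 in CSS, 34.1, 28.5 and 25.7 in CFA, and 5.03, 4.63 and 3.32 in CSA. It was the one chain whose CSS libraries all exceeded its CFA libraries. CSA was 6.72-fold lower than CFA, a log2 fold change of -2.75 (SE 0.17, 95% interval -3.13 to -2.36, adjusted p = 1.35e-06).

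CSA mouse 03 gave the lowest value of its group for all 6 chains. Without that library the log2 fold changes of CSA against CFA were -0.65 for Col4a1, -0.85 for Col4a2, -3.86 for Col4a3, -3.90 for Col4a4, -1.97 for Col4a5 and -2.57 for Col4a6, and the same 4 chains were called. The 95% intervals of the chains in the full comparison fell into separate ranges, those of Col4a1 and Col4a2 lying from -1.5 to -0.42, those of Col4a5 and Col4a6 from -3.13 to -1.78, and those of Col4a3 and Col4a4 from -4.86 to -3.67. With a pseudocount of 1 the estimates lay closer, at -2.65 for Col4a3 and -3.06 for Col4a4 beside -2.52 for Col4a6. No test was made between pairs.

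**Figure D3:**
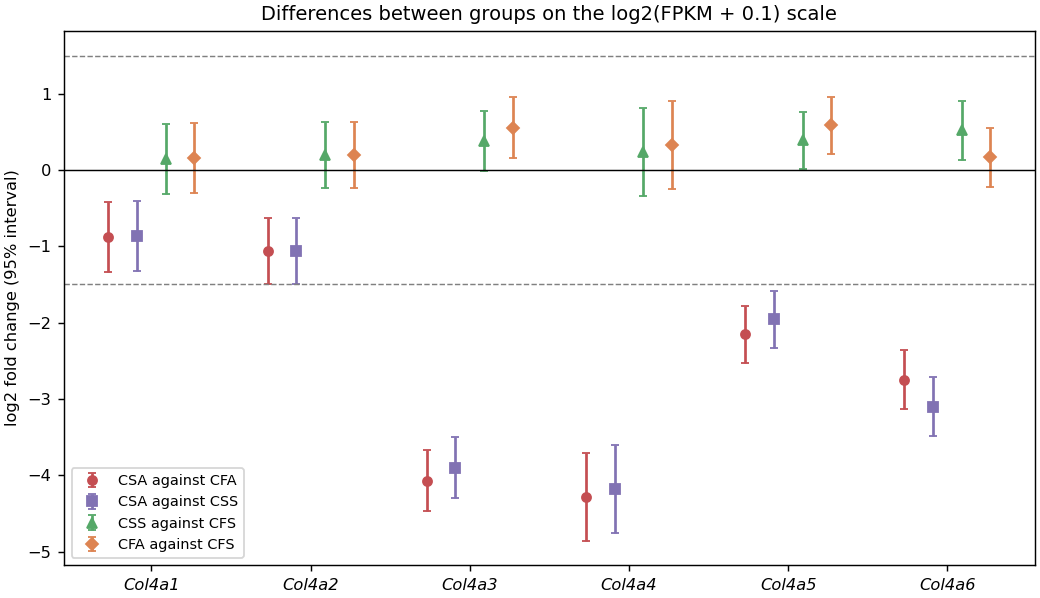
Log2 fold change with its 95% interval (limma, 12 libraries) for each chain in 4 comparisons; the dashed lines mark the fold limit of 1.5 on either side of 0. In CSA against CFA and CSA against CSS the estimates lie below 0 for all 6 chains, between -0.86 and -4.28, and in CSS against CFS and CFA against CFS they lie between 0.14 and 0.58.

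Within CCN2SMC∆ mice, Ang II was also accompanied by lower RNA of all 6 chains. The size of this effect was not tested against that of the genotype difference under Ang II. In CSA against CSS, 4 of 6 chains were called lower, against 9.36% of tested genes, and the same 4 genes as in CSA against CFA were involved. All 6 passed at an adjusted p under 0.05 with no fold limit, against 23.9%, and all 6 had no overlap between the groups, against 29.1%. The log2 fold changes were -0.86 for Col4a1 (adjusted p = 0.00556), -1.06 for Col4a2 (adjusted p = 0.00115), -3.90 for Col4a3 (adjusted p = 1.92e-07), -4.19 for Col4a4 (adjusted p = 8.63e-07), -1.96 for Col4a5 (adjusted p = 5.54e-06) and -3.10 for Col4a6 (adjusted p = 5.24e-07). Without CSA mouse 03 they were -0.63, -0.84, -3.69, -3.81, -1.78 and -2.93 from Col4a1 to Col4a6, and the same 4 chains were called. This comparison shares its CSA libraries with the preceding one. By limma, 8 of 8 SMC markers were called lower in CSA than in CSS (median log2 fold change -3.32). Of the macrophage markers, 5 of 6 were called higher (median 3.19). The part of these markers in the values of the chains was not tested.

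Without Ang II, no chain was called between the genotypes, and all 6 estimates lay above 0. In CSS against CFS, 0 of 6 were called by limma in either direction, against 0.0136% of tested genes. For 5 of 6 the CSS libraries were all above the CFS libraries, the exception being Col4a1, and 11.1% of tested genes had that pattern. The log2 fold changes were 0.14 for Col4a1, 0.19 for Col4a2, 0.38 for Col4a3, 0.24 for Col4a4, 0.39 for Col4a5 and 0.52 for Col4a6. The unadjusted p of limma was under 0.05 for 2 of 6, Col4a5 and Col4a6, whose adjusted p-values were 0.766 and 0.608. The 95% interval for Col4a6 ran from 0.13 to 0.90 and that for Col4a3 from -0.02 to 0.78. In the same comparison 0 of 8 SMC markers were called by limma (0 at an unadjusted p under 0.05), and their median log2 fold change was -0.13. Endothelial markers had a median of 0.43, with 0 of 8 called by limma and 1 at an unadjusted p under 0.05. Fibroblast markers had a median of -0.41, with 0 of 6 called and 3 at an unadjusted p under 0.05. Their part in the values of the chains was not tested.

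Ang II in CCN2fl/fl mice also called 0 of 6 chains in limma, against 0.0273% of tested genes in either direction, and 2 of 6 had an unadjusted p under 0.05. CFA lay above CFS without overlap for Col4a3, Col4a4 and Col4a5, that is 3 of 6 chains, against 9.44% of tested genes. Col4a5 had a log2 fold change of 0.58 (95% interval 0.21 to 0.96, unadjusted p = 0.00552 in limma, adjusted p = 0.244). Col4a3 had one of 0.55 (95% interval 0.15 to 0.95, unadjusted p = 0.011 in limma, adjusted p = 0.331). The values were 0.33 for Col4a4, 0.16 for Col4a1, 0.20 for Col4a2 and 0.17 for Col4a6, each with an interval that included 0. In the same comparison no tested cell type marker was called by limma. The median was -0.27 for SMC markers (2 of 8 at an unadjusted p under 0.05 in limma) and 0.39 for endothelial markers (0 of 8). It was 0.37 for fibroblast markers (3 of 6), 0.61 for macrophage markers (3 of 6) and 1.15 for neutrophil markers (2 of 4). Erythrocyte markers had a median of 2.05 (0 of 4), adipocyte markers one of -0.66 (0 of 4) and skeletal muscle markers one of -1.31 (0 of 3). The part of these markers in the values of the chains was not tested.

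The genotype difference under Ang II was tested against that under saline with an interaction term. It was called negative for 4 of 6 chains, against 7.31% of tested genes, and these were Col4a3 at -4.45 (adjusted p = 5.25e-06), Col4a4 at -4.52 (adjusted p = 3.18e-05), Col4a5 at -2.54 (adjusted p = 5.63e-05) and Col4a6 at -3.27 (adjusted p = 2.25e-05) on the log2 scale. With no fold limit all 6 passed, against 13.7% of tested genes, with Col4a2 at -1.26 (adjusted p = 0.00707) and Col4a1 at -1.02 (adjusted p = 0.0249). The adjusted p of Col4a1 rose to between 0.0542 and 0.0632 when CFA mouse 71, CFA mouse 72, CFS mouse 68, CSS mouse 54 or CSS mouse 56 was left out, while its log2 value stayed between -1.19 and -0.79 whichever of the 12 libraries was left out. Without CSA mouse 03 the interaction was -0.79 for Col4a1 (adjusted p = 0.0165), -1.04 for Col4a2, -4.24 for Col4a3, -4.14 for Col4a4, -2.36 for Col4a5 and -3.09 for Col4a6, and the same 4 chains were called.

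The composition of type IV collagen RNA shifted with these changes. Summed over the 6 chains, FPKM was 585 ± 38.9 in CFS, 674 ± 23.4 in CSS, 691 ± 116 in CFA and 314 ± 80.4 in CSA (SD, n = 3). Col4a1 and Col4a2 made up 83.4% ± 1.69 of that sum in CFS, 81.0% ± 0.451 in CSS, 80.6% ± 2.39 in CFA and 92.2% ± 0.447 in CSA. Col4a5 and Col4a6 made up 14.1% ± 1.59, 16.4% ± 0.481, 16.6% ± 1.83 and 7.52% ± 0.461 in the same order. Col4a3 and Col4a4 made up 2.50% ± 0.261, 2.65% ± 0.213 and 2.88% ± 0.589, and in CSA 0.288% ± 0.0728. CSA mouse 03 did not stand apart in the shares of Col4a1 and Col4a2, which were 92.7%, 92.1% and 91.8% in CSA mice 01, 02 and 03. Those of Col4a3 and Col4a4 were 0.271%, 0.368% and 0.225% in the same mice. These shares are of RNA per length and say nothing of the trimers assembled.

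Within each head-to-head pair, the ratio of the partners was compared between groups with a two-sided exact permutation test, in which 3 mice against 3 cannot give a p below 0.1. Log2 ratios were taken of FPKM + 0.1 unless stated otherwise. Col4a6 per Col4a5 was 0.468 ± 0.0227 in CFS, 0.512 ± 0.0266 in CSS, 0.350 ± 0.00197 in CFA and 0.228 ± 0.00184 in CSA (SD, n = 3). The log2 ratio of Col4a5 to Col4a6 was 0.60 higher in CSA than in CFA (exact p = 0.1, adjusted over 3 pairs 0.15), and no library overlapped. Col4a2 per Col4a1 was 0.843 ± 0.0391, 0.874 ± 0.0291, 0.864 ± 0.00923 and 0.762 ± 0.0104 in the same order. The log2 ratio of Col4a1 to Col4a2 was 0.18 higher in CSA than in CFA (exact p = 0.1, adjusted over 3 pairs 0.15). Col4a4 per Col4a3 was 1.83 ± 0.173, 1.65 ± 0.0664, 1.57 ± 0.111 and 1.45 ± 0.313, and the log2 ratio of Col4a3 to Col4a4 was 0.21 higher in CSA than in CFA (exact p = 0.5, adjusted over 3 pairs 0.5). That pair was near the pseudocount in CSA. On the FPKM themselves, an alternative added after the values were seen, the difference was 0.13 (exact p = 0.8), and without CSA mouse 03 it was -0.063, so no direction is read from it. The other pairs had differences of 0.62 for α5/α6 and 0.18 for α1/α2 with no pseudocount, and of 0.62 and 0.19 when CSA mouse 03 was also left out. In CSS against CFS the 3 log2 ratios differed by -0.05, 0.14 and -0.13 for the α1/α2, α3/α4 and α5/α6 pairs (exact p = 0.5, 0.2 and 0.2).

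**Figure D4:**
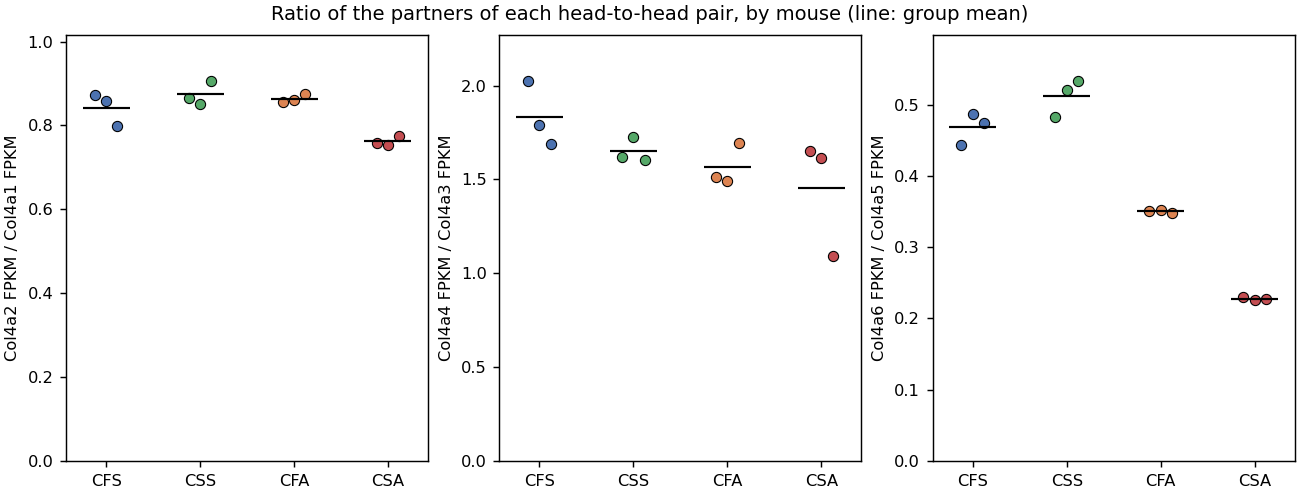
Ratio of FPKM of the lower to the higher partner for Col4a1/Col4a2 and Col4a5/Col4a6, and of Col4a4 to Col4a3, with 1 point per mouse and a line at each group mean; axes start at 0. Col4a6 per Col4a5 lies near 0.350 in CFA and near 0.228 in CSA with little spread, and Col4a4 per Col4a3 overlaps between the groups.

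Since SMC markers fell along with the chains in CSA, each chain was also set against Myh11 as a description, chosen after the values were seen. Of the 8 SMC markers, Myh11 had the largest fall in CSA against CFA (log2 fold change -4.17). The others ran from -3.80 for Cnn1 to -2.28 for Tagln, with Acta2 at -2.86. A ratio to Myh11 is therefore raised more in CSA than a ratio to any other of these markers. Per 100 FPKM of Myh11, Col4a3 was at 1.18, 1.0 and 0.991 FPKM in CFA and 1.10, 1.24 and 0.520 in CSA. Col4a4 was at 1.79, 1.5 and 1.68 in CFA and 1.82, 2.0 and 0.568 in CSA. For this pair the ratios overlapped between CFA and CSA. Col4a1 was at 41.8 ± 8.57 in CFA and 428 ± 162 in CSA, and Col4a2 at 36.1 ± 7.10 and 325 ± 121 (SD, n = 3). Col4a5 was at 11.7 ± 1.55 and 49.2 ± 15.9, and Col4a6 at 4.10 ± 0.554 and 11.2 ± 3.64. These 4 chains were higher relative to Myh11 in every CSA mouse than in any CFA mouse, CSA mouse 03 being the lowest of its group. Acta2, the other main contractile transcript, gave another picture for 3 of the 6 chains. Per 100 FPKM of Acta2, Col4a3 was at 0.147 ± 0.0398 in CFA and 0.0497 ± 0.0129 in CSA, and Col4a4 at 0.233 ± 0.0782 and 0.0748 ± 0.0316, with no overlap. Col4a6 ranged from 0.431 to 0.663 in CFA and from 0.486 to 0.687 in CSA, which overlap. Col4a1 was at 5.6 ± 0.451 and 22.4 ± 5.24, Col4a2 at 4.84 ± 0.427 and 17.0 ± 3.84, and Col4a5 at 1.60 ± 0.347 and 2.59 ± 0.430, higher in every CSA mouse as with Myh11. Relative to the 8 endothelial markers taken one at a time, Col4a1 and Col4a2 had a higher mean in CSA for 3 of the 8 (Pecam1, Tek and Vwf), Col4a5 for 1 (Vwf), and Col4a3, Col4a4 and Col4a6 for 0, as a count with no test. Per 100 FPKM of the sum of those markers, Col4a1 was at 102 ± 53.3 in CFA and 108 ± 19.2 in CSA, which overlap. Col4a3 was at 2.46 ± 0.853 and 0.243 ± 0.0747 on that scale, and Col4a5 at 27.6 ± 10.9 and 12.5 ± 1.73, with no overlap for either. The direction relative to a marker thus depended on the marker for Col4a1, Col4a2, Col4a5 and Col4a6. The part of SMC content in the fall of the chains was not tested.

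**Figure D5:**
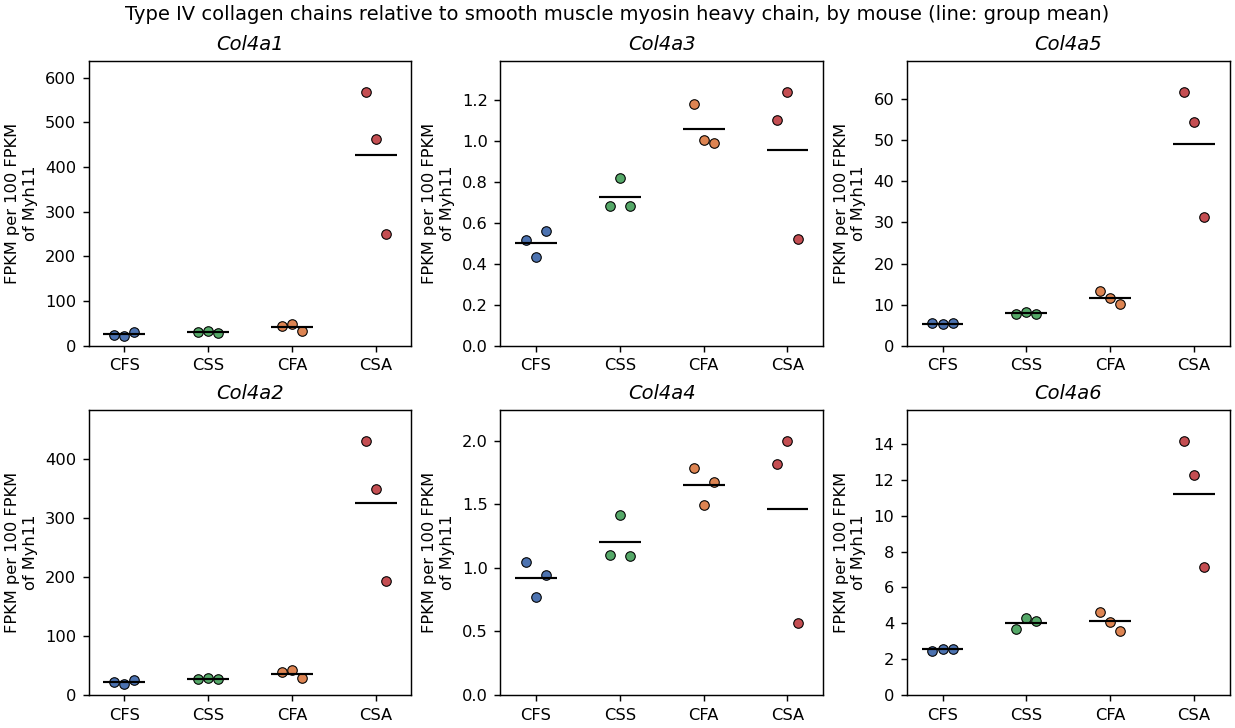
FPKM of each chain per 100 FPKM of Myh11, with 1 point per mouse and a line at each group mean; axes are linear and start at 0. Col4a3 and Col4a4 overlap between CFA and CSA, and the CSA points of the other 4 chains all lie above the CFA points. Myh11 fell the most of the 8 SMC markers, so other markers give lower ratios in CSA relative to CFA.

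The proteins that share the basement membrane with type IV collagen were taken as a list of 24 laminin chains, nidogens, perlecan and related genes, of which 19 were tested. In CSA against CFA, 10 of 19 were called lower, against 8.27% of all tested genes, and 0 higher, against 8.95% (2 had a higher level at an adjusted p under 0.05 in limma), with a median log2 fold change of -1.62 against -0.04 for all tested genes. Without CSA mouse 03 the counts were also 10 and 0, with a median of -1.51, but Hspg2 was no longer called and Lama3 was. SMC markers fell along with this list, as given above, and their part in its fall was not tested. Lamc3, the laminin γ3 chain, fell from 14.1 ± 1.70 FPKM to 0.338 ± 0.229 (log2 fold change -5.20, adjusted p = 2.80e-06). Npnt, the integrin ligand nephronectin, fell from 191 ± 41.4 to 19.7 ± 0.527 (-3.25, adjusted p = 4.27e-07), and Tinagl1 fell from 95 ± 3.72 to 12.9 ± 3.46 (-2.91, adjusted p = 1.30e-06). Lamb2 (-2.07, adjusted p = 1.65e-05) and Lama5 (-2.05, adjusted p = 0.000977) fell, as did perlecan, Hspg2 (-1.73, adjusted p = 0.000743), whose value without CSA mouse 03 was -1.32. Lama4 (-0.90, adjusted p = 0.00181) and Lamc1 (-0.72, adjusted p = 0.00613) passed the adjusted p without the fold limit. Lamb1 had a log2 fold change of 1.05 (adjusted p = 0.0174) and Nid2 one of 0.91 (adjusted p = 0.0139), in the opposite direction. Nid1, which links laminin to type IV collagen, was at 60.7 ± 3.70 and 49.8 ± 10.5 FPKM (adjusted p = 0.134), and without CSA mouse 03 its log2 fold change was -0.45 (adjusted p = 0.00968).

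The enzymes and chaperones that modify, fold, export and crosslink collagen formed a list of 23, of which 22 were tested. Of these, 2 were called higher, against 8.95% of all tested genes, and 1 lower, against 8.27%, with a median log2 fold change of 0.14. Without CSA mouse 03, 1 was called higher and 1 lower, Plod2 then having a log2 fold change of 1.32. P3h2, a prolyl 3-hydroxylase that acts on type IV collagen, fell from 14.0 ± 2.47 to 1.60 ± 0.149 FPKM (log2 fold change -3.04, adjusted p = 6.90e-07). P4ha3 (2.59, adjusted p = 0.000513) and Plod2 (1.59, adjusted p = 0.000251), which hydroxylate proline and lysine, rose. Pxdn, the peroxidase that forms the sulfilimine crosslink of the type IV network, had a log2 fold change of -0.46 (adjusted p = 0.0347), which was -0.35 (adjusted p = 0.0678) without CSA mouse 03. Serpinh1, the collagen chaperone Hsp47, was at 423 ± 76.5 and 504 ± 136 FPKM (adjusted p = 0.45), with a log2 fold change of 0.48 (adjusted p = 0.0462) without CSA mouse 03.

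Of the type IV collagen receptors, 6 of 7 were tested, and 1 was called lower, against 8.27% of all tested genes. This was Itgb3, which was also called without CSA mouse 03. Itga2, the α2 integrin subunit, would not have met the limit for testing without the CSA libraries. Its entry into the test thus favoured a higher level in CSA, and it is given by its values only. These were 0.782 ± 0.203 FPKM in CFA and 4.77 ± 1.61 in CSA. Itgb3 fell from 36.6 ± 13.0 to 9.45 ± 2.57 (-1.90, adjusted p = 0.000202). Itga1 (-0.90, adjusted p = 0.00491) and Itgb1 (-0.93, adjusted p = 0.00215), which form the α1β1 receptor, passed the adjusted p without the fold limit, and Ddr1 had a value of -1.16 (adjusted p = 0.0748). Ddr1 ranged from 3.09 to 15.5 FPKM in CSA, and without CSA mouse 03 its value was -0.40 (adjusted p = 0.0113). Of 12 proteases that cut type IV collagen and their inhibitors, 10 were tested, with 6 called higher, against 8.95% of all tested genes, and 1 lower, against 8.27%. Mmp12, at 2.03 ± 0.309 FPKM in CSA, is 1 of the 6 but would not have met the limit for testing without the CSA libraries, which leaves 5 higher calls. Without CSA mouse 03 the counts over all 10 were 5 higher and 2 lower. Cathepsin S, Ctss, rose from 33.9 ± 23.8 to 713 ± 71.8 FPKM (4.6, adjusted p = 5.33e-06). The gelatinase Mmp9 rose as well (2.52, adjusted p = 2.42e-05), and Mmp2 had a value of 0.70 (adjusted p = 0.0231). Among the inhibitors, Timp1 rose (3.47, adjusted p = 0.000461) and Timp4 fell (-3.80, adjusted p = 6.38e-06). The other inhibitors, named after their values were seen, had values of -0.69 for Timp2 (adjusted p = 0.00063) and -1.46 for Timp3 (adjusted p = 9.48e-06), lower at the adjusted p but short of the fold limit. Macrophage markers moved with this list, and 5 of 6 were called higher. Their summed FPKM over 6 genes was 232 to 453 in CFA and 1423 to 1620 in CSA. Neutrophil markers were also higher, their summed FPKM over 4 genes being 9.86 to 22.3 in CFA and 447 to 455 in CSA. The part of either set of markers in the result was not tested. In CSS against CFS, 0 genes of these 4 lists were called by limma, and 1 gene of the collagen-modifying list had an unadjusted p under 0.05.

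The genes most like each pair over the 12 libraries were found by Pearson correlation of log2(FPKM + 0.1) with the mean of the pair, as a description in which all points share the same libraries and groups. For Col4a1 and Col4a2 these were Col18a1 (r = 0.988), Ncs1 (r = 0.982) and Trp53inp2 (r = 0.980). Col18a1, a collagen of vascular basement membranes, was at 398 ± 127 FPKM in CFA and 61.5 ± 30.3 in CSA. For Col4a3 and Col4a4 they included Slc2a10 (r = 0.994) and Mmp17 (r = 0.993). Mmp17, a membrane-anchored matrix metalloproteinase, was at 35 ± 5.04 FPKM in CFA and 3.02 ± 1.05 in CSA. For Col4a5 and Col4a6 they included Ldlrad4 (r = 0.997) and Fblim1 (r = 0.994).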

How the data were processed

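RNA-Seq of 12 aortas was analysed from 1 table whose columns were matched to mice and groups by the sample labels, with 0 columns left unused. The authors deposited FPKM per gene and mouse. The submitters' processing notes name HISAT2 2.0.5, StringTie 1.3.3b, featureCounts 1.5.0-p3 and build mm10, and the annotation release is not given in the sources used here. FPKM multiplied by the exon length from GENCODE M21 and divided by a constant per library, the value of 1 fragment, estimated from the low values, gave whole fragments (within 0.1) for 98.4% to 98.7% of values under 100 fragments, and their sum was taken as depth. Median-of-ratios size factors of the FPKM were equal in all libraries, so the deposited values already carry such a scaling.

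Testing covered genes that reached an FPKM of 1 in 3 or more libraries, as log2(FPKM + 0.1) with limma 3.58.1 in R 4.3.3 (eBayes with trend and robust settings, 1 coefficient per group, no covariate). P-values were adjusted by Benjamini-Hochberg over 14676 genes, 256 of them without an Ensembl identifier. Calls required an adjusted p under 0.05 together with a log2 fold change beyond 1.5 in either direction. The study's methods name DEG-Seq, which needs counts and was not used. The fit was first tested on simulated data. Other tables and figures used Python 3.11.15, pandas 2.3.3, scipy 1.17.1 and matplotlib 3.10.9. Error values after ± are SD over 3 mice, each library being 1 mouse.

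The members, gene lists and marker lists were chosen with earlier results of these data known. Named genes were the 6 chains, the 3 genes most correlated with each pair, the 3 genes of each list with the largest change of CSA against CFA, a fixed set of basement membrane, receptor and protease genes, and Ccn2; some of these are not reported here. The marker lists covered smooth muscle, endothelium, fibroblast, macrophage, neutrophil, T cell, B cell, adipocyte, skeletal muscle, Schwann cell, kidney and erythrocyte. Alternatives were another pseudocount, no filter, a mean FPKM of at least 5, other scalings, eBayes without trend and robust settings, a fit on the compared groups only, no fold limit and leaving out each library. Of the scalings, median-of-ratios left the values unchanged.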

Additional observations from a re-analysis of the deposited data

Results flagged for a closer look

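The genotype difference under Ang II differed from that under saline for all 6 chains by the interaction term of limma (Benjamini-Hochberg adjusted p under 0.05), except that the adjusted p of Col4a1 rose to between 0.0542 and 0.0632 when CFA mouse 71, CFA mouse 72, CFS mouse 68, CSS mouse 54 or CSS mouse 56 was left out, while its value stayed between -1.19 and -0.79 whichever library was left out. Of all tested genes, 13.7% had a negative interaction at an adjusted p under 0.05 with no fold limit. On the log2 scale the interaction was -1.02 for Col4a1, -1.26 for Col4a2, -4.45 for Col4a3, -4.52 for Col4a4, -2.54 for Col4a5 and -3.27 for Col4a6. Under saline the estimates were between 0.14 and 0.52, and under Ang II between -0.88 and -4.28. SMC markers had interactions of the same sign, with 8 of 8 called and a median of -2.95, against 7.31% of all tested genes called negative. The part of these markers in the result for the chains was not tested.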

How the results depend on the processing

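The 4 chains called in CSA against CFA, in CSA against CSS and in the interaction kept direction and call under every alternative that gave a value, and 0 chains were called in CSS against CFS and CFA against CFS under all of them. Median-of-ratios scaling, among these alternatives, had equal factors in all libraries. It therefore repeated the main fit and could not change a call. Col4a3 could not be fitted with a mean FPKM of at least 5, its mean being lower. Without a fold limit 6 chains in place of 4 passed in CSA against CFA. Over alternatives the log2 fold change of CSA against CFA ran from -1.05 to -0.65 for Col4a1, -1.23 to -0.85 for Col4a2, -4.23 to -2.65 for Col4a3, -4.52 to -3.06 for Col4a4, -2.26 to -1.97 for Col4a5 and -2.87 to -2.52 for Col4a6. Over all tested genes, 2528 were called in CSA against CFA, 1601 with a pseudocount of 1, 1095 with a mean FPKM of at least 5 and 5978 with no fold limit. In CSA against CSS 2977 were called, against 1918, 1272 and 6781, and in the interaction 2231, against 1078 with the higher filter and 3877 with no fold limit. The 2 genes called in CSS against CFS became 0 to 16 when a library was left out and 20 on the compared groups alone, and the 4 in CFA against CFS became 0 to 124, the highest without CFA mouse 74. The log2 ratio of Col4a3 to Col4a4 in CSA against CFA, 0.21, became 0.13 with no pseudocount and -0.063 with no pseudocount and without CSA replicate 03, both chosen after seeing the data. Causes were not tested. No paired analysis was possible because the groups share no mouse numbers. With 3 mice per group, small changes would be missed, and depth limits Col4a3 and Col4a4 in CSA, which rest on 37 to 170 fragments per library.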

Other observations

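Other cell type markers were read for CSA against CFA. Of 6 fibroblast markers 0 were called by limma (4 had an unadjusted p under 0.05, of which Lum, Col1a1 and Col3a1 were higher and Dpt was lower), and their summed FPKM was 2992 to 3326 in CFA and 5080 to 6032 in CSA. Col1a1 and Col3a1, which encode fibrillar collagens, made up most of that sum. They were at 1439 ± 66.6 and 961 ± 50.3 FPKM in CFA and 2823 ± 382 and 1630 ± 202 in CSA (SD, n = 3). Their log2 fold changes were 0.96 (limma adjusted p = 0.000529) and 0.76 (limma adjusted p = 0.00161). The paper reports strong collagen I staining in most cells of the remodeled wall, so these genes are not read as particular to adventitial fibroblasts. Lum had a log2 fold change of 1.44 (limma adjusted p = 0.000222) and Dpt one of -1.13 (limma adjusted p = 0.000349), while those of Pdgfra and Dcn were 0.38 and 0.54 (limma adjusted p = 0.219 and 0.183). Neutrophil markers (4 genes) summed to 9.86 to 22.3 FPKM in CFA and 447 to 455 in CSA, and T cell markers (4 genes) to 0.392 to 1.55 and 16.5 to 23.9. All 4 T cell markers and the neutrophil marker Mmp8 would not have met the limit for testing without the CSA libraries, so their calls are not given. All 4 erythrocyte markers were called lower, but without CSA mouse 03 none reached an adjusted p under 0.05 in limma (0.0781 to 0.127), with log2 fold changes of -2.40 to -2.08 against -3.18 to -2.29 with it. Of 4 adipocyte markers 1 was called lower, and 0 tested markers of B cells, skeletal muscle, Schwann cells or kidney were called by limma. At an unadjusted p under 0.05 these were 2 of 4 Schwann cell markers, 1 of 1 kidney marker and 0 markers of B cells and skeletal muscle.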
